A study of Homo sapiens with 6 samples.

Results

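ADAMTS4, ADAMTS5, SULF1, HAPLN1 and LOXL4 encode secreted proteins that cut, edit or join the extracellular matrix, and their transcripts were compared in A375 cells, an established human melanoma line. They are 5 of the 2778 features of the deposited count table, found by gene name, and were picked with the difference between the groups already known. The tested cells carried the genotype CYGB-overexpression (CYGB-OE, n = 3 libraries) and were set against wildtype cells (WT, n = 3 libraries). The CYGB product is cytoglobin, a globin that carries haem. Both groups were untreated and were grown in DMEM with fetal bovine serum. The labels give no empty-vector control, clone number, promoter or batch, and do not say that the libraries came from separate cultures, so every error here is a spread over libraries and may be technical.

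The matrix around cells holds proteoglycans, proteins that carry long sulfated sugar chains. Aggrecan, a large chondroitin sulfate proteoglycan, binds hyaluronan, and link proteins such as HAPLN1 lock the pair together. ADAMTS4 and ADAMTS5 are the main aggrecanases, secreted zinc proteases that cut the core proteins of aggrecan and its relatives. SULF1 removes sulfate from heparan sulfate chains outside the cell, which changes what growth factors bind there. LOXL4 is a lysyl oxidase, a copper enzyme that starts the cross-linking of collagen and elastin.

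The table is a selection. After scaling, the log2 ratios of group means left a gap from -1 to 1, with every listed feature outside it. Column totals were 1533260 to 1897052 counts in CYGB-OE and 2025159 to 2801576 in WT and are sums over listed features, not library depths. CYGB itself had 20740 to 26267 counts in CYGB-OE, against 33 to 47 in WT. CYGB-OE replicate 1 stood apart, with a median absolute log2 difference of 0.456 and 0.461 from replicates 2 and 3, against 0.211 between those and 0.175 to 0.184 among WT libraries. Of 12 melanocyte and melanoma markers, 3 were in the table, with a summed normalised count of 583 to 706 in CYGB-OE, against 1727 to 1910 in WT. Most of that sum was EDNRB, at mean normalised counts of 637 in CYGB-OE and 1804 in WT. TYRP1 was low in both, at means of 4.26 in CYGB-OE and 25 in WT. DCT, a pigment enzyme, had 0 counts in all CYGB-OE libraries, against 2, 13 and 15 in WT, too few to be tested. The other 9 markers were not analysed here.

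ADAMTS4 and ADAMTS5 were higher in CYGB-OE, and SULF1, HAPLN1 and LOXL4 were lower. In all 5 genes the groups did not overlap, as in 98.3% of the features of the table, 28.3% of them higher and 70.1% lower. Among all features, 2465 passed the filter on low counts, the 5 genes among them. Of these, 697 were higher (28.3%) and 1762 lower (71.5%) in edgeR's quasi-likelihood test at an adjusted p threshold of 0.05. Counts scaled by TMM over the table, a method that centres the typical feature at no change, gave 745 higher and 465 lower. Because the genes were picked for this contrast, their values are given as a description with no test.

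**Figure D1:**
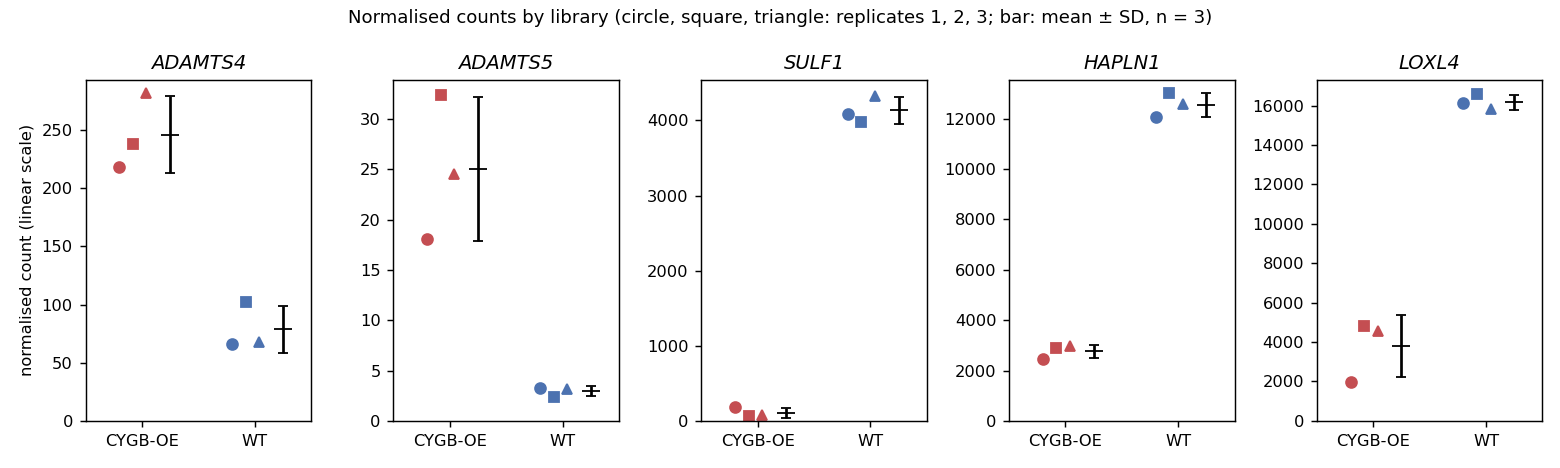
Normalised counts (linear vertical axes from 0, counts divided by the library's scaling factor) of the 5 genes in the 3 CYGB-OE libraries (red, left) and the 3 WT libraries (blue, right), with mean ± SD. All CYGB-OE values of ADAMTS4 (218 to 282) lie above the WT values (66.0 to 102), and all CYGB-OE values of SULF1 (68.1 to 181) lie below the WT values (3984 to 4328).

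ADAMTS4 (ENSG00000158859) lies on the minus strand of GRCh38 chromosome 1, from 161184308 to 161199056, and its longest coding transcript has 9 exons. It had 204, 213 and 310 counts in CYGB-OE replicates 1 to 3, against 60, 129 and 64 in WT replicates 1 to 3. Normalised, that is 218, 238 and 282 in CYGB-OE, against 66.0, 102 and 68.0 in WT. WT replicate 2 was the highest of the WT libraries, and still below the lowest CYGB-OE library. The means were 246 ± 32.8 in CYGB-OE and 78.7 ± 20.2 in WT (SD, n = 3 each), a log2 fold change of 1.63 (SE 0.22). ADAMTS4 ranked 256 by fold among the 698 features that were higher, whose median log2 fold change was 1.40.

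ADAMTS5 (ENSG00000154736, chromosome 21, 26917912 to 26966513, minus strand) has 1 annotated transcript of 8 exons. It was near the limit of detection in WT. The CYGB-OE libraries held 17, 29 and 27 counts, against 3, 3 and 3 in the WT libraries. Normalised counts averaged 25 ± 7.14 in CYGB-OE and 2.95 ± 0.507 in WT (SD, n = 3 each). The ratio of summed counts, CYGB-OE over WT, was 8.61, with an exact 95% interval of 4.30 to 19.6 that covers counting error only. The fitted log2 fold change was 3.05 (SE 0.41). For ADAMTS4 the same ratio was 3.05 (interval 2.64 to 3.54), and whether the 2 genes differ in fold was not tested.

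HAPLN1 (ENSG00000145681, chromosome 5, 83637805 to 83721613, minus strand), the hyaluronan and proteoglycan link protein, was abundant in both groups. It had 2307, 2577 and 3256 counts in CYGB-OE, against 10983, 16462 and 11822 in WT. Normalised counts were 2461, 2878 and 2959 in CYGB-OE, against 12078, 13011 and 12565 in WT. Both groups were tight, with a coefficient of variation of 9.66% in CYGB-OE and 3.72% in WT. The CYGB-OE mean of 2766 ± 267 was 22% of the WT mean of 12551 ± 466 (SD, n = 3 each), a log2 fold change of -2.18 (SE 0.10). Here and for the other lower genes, fewer cells with the transcript and less of it per cell cannot be told apart in bulk RNA.

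SULF1 (ENSG00000137573, chromosome 8, 69466624 to 69660915, plus strand) spans 194.3 kb and has 23 annotated transcripts, of which the counts give only the sum. It had the largest fold of the 5 genes and ranked 21 by fold among the 1767 features that were lower, whose median log2 fold change was -1.58. The CYGB-OE libraries held 170, 61 and 83 counts, against 3721, 5041 and 4072 in WT. Normalised counts were 181, 68.1 and 75.4 in CYGB-OE, against 4092, 3984 and 4328 in WT. CYGB-OE replicate 1 was higher than the other CYGB-OE libraries and remained far below every WT library. The CYGB-OE mean of 108 ± 63.4 was 2.62% of the WT mean of 4135 ± 176 (SD, n = 3 each), a log2 fold change of -5.26 (SE 0.40). Without CYGB-OE replicate 1 it was -5.84.

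LOXL4 (ENSG00000138131, chromosome 10, 98247690 to 98268250, minus strand) has 1 annotated transcript of 15 exons and was the most abundant of the 5 in WT. It had 1859, 4326 and 5043 counts in CYGB-OE, against 14654, 20981 and 14889 in WT. Normalised counts were 1983, 4831 and 4583 in CYGB-OE, against 16116, 16582 and 15824 in WT. In CYGB-OE replicate 1 it was well below the other CYGB-OE libraries, the opposite of SULF1. The CYGB-OE mean of 3799 ± 1578 was 23.5% of the WT mean of 16174 ± 382 (SD, n = 3 each), a log2 fold change of -2.09 (SE 0.32), or -1.78 without that library.

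An antisense gene, AL139241.1, shares 152 exon bases with LOXL4, 4.16% of the LOXL4 exon length, and is also in the table. It had 6, 13 and 25 counts in CYGB-OE, against 74, 89 and 62 in WT. No source used here gives the strand setting of the counting, so reads in the shared bases cannot be told apart. The AL139241.1 counts are few beside those of LOXL4. They do not bound reads of the shared bases that may have been counted for neither gene.

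The stretches before the starts of HAPLN1 and LOXL4, which were lower by like amounts, were compared. The set of RefSeq (GRCh38.p14) promoters used here held only these 2 of the 5 genes. Each window runs from 250 bases before to 50 bases after the annotated RefSeq start. The windows are chr5:83720806-83721105 for HAPLN1 and chr10:98268145-98268444 for LOXL4, both on the minus strand. GENCODE starts both genes further upstream, by 758 bases for HAPLN1, whose whole window is then inside the annotated gene, and by 56 for LOXL4. The 194 bases before the GENCODE start of LOXL4, chr10:98268251-98268444, are shown because they lie before the LOXL4 start in both annotations. They are printed 5′ to 3′ along the gene, with matches to the NF-kB motif and to the SP1 motif GGGCGG, on either strand, in capitals.
LOXL4: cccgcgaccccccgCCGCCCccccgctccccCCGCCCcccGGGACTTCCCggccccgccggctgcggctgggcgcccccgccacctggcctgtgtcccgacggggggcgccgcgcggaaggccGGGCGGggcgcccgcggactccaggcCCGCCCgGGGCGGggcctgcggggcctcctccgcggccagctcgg

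The LOXL4 window is 85.3% G and C with 45 CG pairs, and 0.188% of 35116 RefSeq promoters have a higher share. The HAPLN1 window is 50% G and C with 6 CG pairs, and 68.7% of promoters have a higher share. LOXL4 has 7 matches to the SP1 motif in the window, 5 of them in the printed stretch, and 45% of promoters hold at least 1. The share of promoters with as many as 7 was not counted. The SP1 motif is made of G and C alone, and its matches were not adjusted for the G and C share of the window. It has 1 match to the NF-kB motif, at bases -210 to -201 from the RefSeq start, which 11.3% of promoters hold. The SP1 and NF-kB matches do not overlap. Neither motif is in the HAPLN1 window. Neither window has the AP-1 motif TGANTCA, found in 7.71% of promoters, the cAMP response element TGACGTCA, found in 1.85%, or the CEBP motif TTGCNNAA, found in 10.5%. The TEAD motif GGAATG, found in 14% of promoters, the TATA box TATAAA, found in 11.5%, and the STAT motif TTCNNNGAA, found in 7.66%, were absent from both as well. All were searched on both strands. A match describes these letters and is not a site of binding.

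Levels of different genes were compared per kb of annotated exon. In CYGB-OE the order was LOXL4, HAPLN1, ADAMTS4, SULF1 and ADAMTS5, at means of 1040 ± 432, 398 ± 38.4, 23.8 ± 3.17, 11.5 ± 6.74 and 2.76 ± 0.788 normalised counts per kb (SD, n = 3). In WT, LOXL4 and HAPLN1 were also on top at 4428 ± 105 and 1804 ± 67.0, followed by SULF1 at 440 ± 18.7, ADAMTS4 at 7.61 ± 1.96 and ADAMTS5 at 0.326 ± 0.0560 normalised counts per kb. ADAMTS4 and SULF1 thus stood in opposite order in the groups. Neighbours in each order did not overlap between libraries on this scale. Divided by the longest coding transcript instead, SULF1 (11.9 to 31.8 per kb) and ADAMTS4 (22.3 to 28.8 per kb) overlapped in CYGB-OE, so their order there rests on which length is used.

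**Figure D2:**
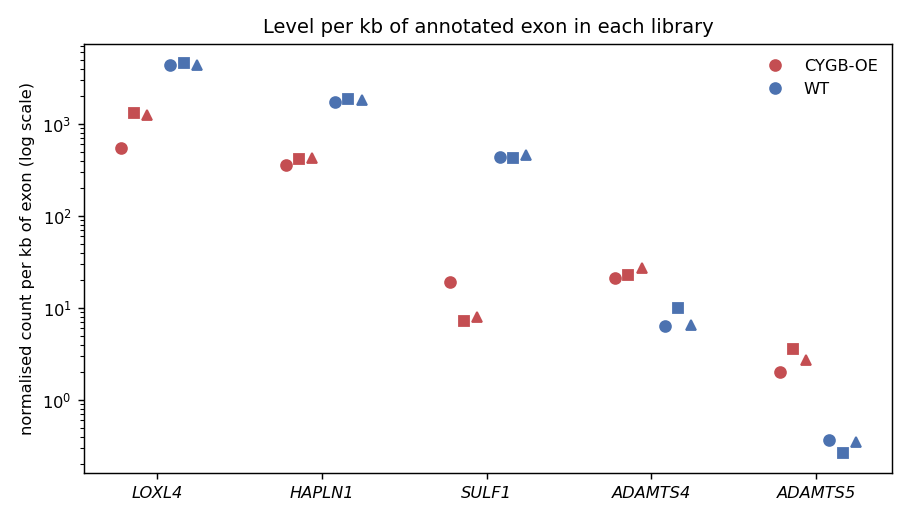
Normalised counts per kb of annotated exon (log scale) of the 5 genes in each CYGB-OE library (red, left of each pair) and each WT library (blue, right), with circle, square and triangle for replicates 1 to 3. SULF1 is at 7.24 to 19.3 per kb in CYGB-OE and 424 to 460 in WT, and ADAMTS4 at 21.1 to 27.3 in CYGB-OE and 6.39 to 9.87 in WT.

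Ratios between genes of the same library do not depend on scaling. They were chosen after the values were seen and carry no test. ACAN, which encodes aggrecan, had 194, 68 and 96 counts in CYGB-OE, against 1154, 1420 and 1189 in WT. ADAMTS4 counts were 105%, 313% and 323% of ACAN counts in CYGB-OE, against 5.20%, 9.08% and 5.38% in WT. Counts of this aggrecan-cutting protease thus exceeded those of its substrate in every CYGB-OE library and in no WT library. In CYGB-OE replicate 1 they were nearly equal, at 204 for ADAMTS4 and 194 for ACAN. With no correction for length, the counts do not give the order of transcript numbers. HAPLN1 counts were 1189%, 3790% and 3392% of ACAN counts in CYGB-OE, against 952%, 1159% and 994% in WT, so HAPLN1 was lower by less than aggrecan, though CYGB-OE replicate 1 was just above the highest WT library. SULF1 was set against HSPG2, which encodes the heparan sulfate proteoglycan perlecan, and its counts were 3.52%, 1.30% and 1.41% of those in CYGB-OE, against 30.4%, 29.3% and 26.6% in WT. SULF1 was therefore lower relative to this possible carrier of its substrate as well. LOXL4 counts were 80.6%, 168% and 155% of HAPLN1 counts in CYGB-OE, against 133%, 127% and 126% in WT. The CYGB-OE values lie on both sides of the WT values, so no difference in fold between LOXL4 and HAPLN1 was resolved.

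The CYGB-OE libraries differed most from each other in SULF1 and LOXL4. On a log2 scale with a pseudocount of 1, CYGB-OE replicate 1 was 1.33 above the mean of replicates 2 and 3 for SULF1 and 1.25 below it for LOXL4 (a difference of -1.25). Of all tested features 9.41% deviated more than SULF1 and 10.8% more than LOXL4. For SULF1 that library was the nearest to WT, as in 34.4% of the features called lower, and for LOXL4 the farthest, as in 46.6% of them. The deviation was -0.61 for ADAMTS5, -0.25 for ADAMTS4 and -0.25 for HAPLN1, and 36.4%, 70.0% and 70.3% of features deviated more. Among the 200 features nearest in mean level, the median SD across CYGB-OE libraries was 0.18 for SULF1 and 0.17 for LOXL4, against their own 0.77 and 0.72. Across WT libraries both were as tight as such features, at SDs of 0.06 and 0.03. What sets this library apart was not tested.

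**Figure D3:**
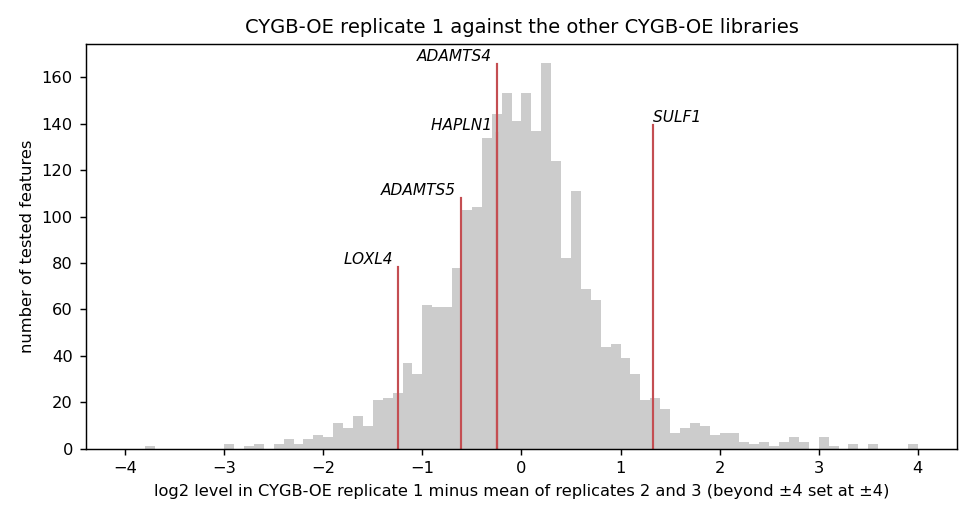
Number of tested features (vertical axis) by the log2 difference between CYGB-OE replicate 1 and the mean of CYGB-OE replicates 2 and 3 (horizontal axis, in bins), with red lines at the 5 genes. SULF1 (1.33) and LOXL4 (-1.25) lie in opposite tails, and ADAMTS4 and HAPLN1 (both -0.25) lie near the middle.

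The genes most like each of the 5 across the 6 libraries were found by the root mean square distance between centred log2 levels, among named features with a mean normalised count of at least 50. HAPLN1 lay closest to CNTN1, a neuronal adhesion protein, FMNL1, a formin that acts on actin, and RASSF4, at distances of 0.05, 0.07 and 0.08. LOXL4 lay closest to ACTA2, the smooth muscle actin, MTSS1, an actin and membrane binding protein, and GLDN, at 0.09, 0.09 and 0.10. For ADAMTS4 the nearest were CRISPLD2, MAL2 and MYPN, at 0.09, 0.13 and 0.15. The distance takes in the difference between the groups, so genes with a like fold change lie close. The log2 fold change was -2.18 for both CNTN1 and HAPLN1, and -2.01 for ACTA2 against -2.09 for LOXL4. It was 1.58 for CRISPLD2 against 1.63 for ADAMTS4. Shared regulation was not tested.

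The smallest distances were larger for ADAMTS5 and SULF1. ADAMTS5 lay nearest to VAV3, a guanine nucleotide exchange factor, CREB3L3 and LYZ, the lysozyme gene, at 0.23, 0.27 and 0.28. SULF1 lay nearest to IL37, a cytokine of the interleukin 1 family, ST8SIA1 and the long non-coding RNA AC113346.1, at 0.30, 0.47 and 0.57. Between the 5 genes, HAPLN1 and LOXL4 were 0.34 apart and ADAMTS4 and ADAMTS5 were 0.64 apart. The median distance to all candidates was 1.47 for ADAMTS4, 1.98 for ADAMTS5, 2.15 for SULF1, 0.56 for HAPLN1 and 0.69 for LOXL4.

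Protein-coding genes within 500 kb of each gene were looked up in GENCODE release 29. Near HAPLN1, 1 of 3 was in the table. This was EDIL3, a secreted integrin ligand that lies 218.9 kb away, with normalised counts of 114, 119 and 101 in CYGB-OE, against 492, 458 and 512 in WT. It fell by 2.13 on the log2 scale (SE 0.14, edgeR adjusted p = 5.58e-06), close to HAPLN1. The proteoglycan gene VCAN lies 55.5 kb from HAPLN1 and ADAMTS1 lies 72.5 kb from ADAMTS5, and neither was analysed here. CYYR1, near ADAMTS5, did not pass the filter, at 1, 0 and 0 counts in CYGB-OE, against 2, 12 and 6 in WT.

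Near LOXL4, 2 of 8 neighbours were in the table and both were lower, as were 71.5% of tested features. PYROXD2 had a log2 fold change of -1.03 (edgeR adjusted p = 0.00071). SFRP5, a secreted antagonist of Wnt signalling, had one of -2.01 (edgeR adjusted p = 5.65e-05). Under TMM over the table PYROXD2 turned to 0.17 (edgeR adjusted p = 0.519). Near ADAMTS4, the junction protein F11R fell at -1.61 (edgeR adjusted p = 1.32e-05), as did FCGR2A, FCGR2B and SLAMF7 at -1.40, -1.41 and -1.77 (adjusted p = 0.000106, 0.00287 and 0.00254), where FCGR2A and FCGR2B have near-identical relatives that make their counts uncertain. Under TMM over the table F11R kept its call and those 3 did not, at -0.20, -0.22 and -0.57 (edgeR adjusted p = 0.415, 0.669 and 0.296). None of 3 neighbours of SULF1 was in the table.

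Other genes of the same pathways were mostly lower, as was the table. On 7 lists of matrix genes there were 148 besides the 5, and the table held 30, with 29 past the filter. Among those 5 rose and 24 fell (edgeR adjusted p threshold 0.05), where 28.3% of tested features rose and 71.5% fell. The median log2 fold change of the 29 was -1.46, against -1.30 over all tested features. Because features were listed for differing in these libraries, a call is not independent evidence. Adjusted over all 58735 annotated genes, 3 stayed higher and 23 lower, and the calls of ADAMTS2, PRG4 and ADAMTS9 were lost (adjusted p = 0.0584, 0.138 and 0.152). Under TMM over the table, which adds 1.2 to the log2 fold changes, 5 were higher and 9 lower (ADAMTS10, ADAMTSL4, ACAN, CSPG4, SRGN, ESM1, TNFAIP6, EFEMP2 and FBLN5), and 5 lower genes turned positive (6 genes changed sign under DESeq2 size factors). CYGB-OE was also higher in fibroblast markers (2 of 9 in the table, COL1A2 and COL3A1), at a summed normalised count of 38.4 to 193, against 1.10 to 3.95 in WT. Keratinocyte (1 of 6, KRT14) and leukocyte markers (1 of 6, LYZ) summed to 51.8 to 68.1 and 223 to 341 in CYGB-OE, against 13.8 to 20.5 and 43.6 to 55.3 in WT. Chondrocyte (4 of 9, with ACAN among them) and endothelial markers (2 of 6) summed to 506 to 877 and 16.8 to 34.1 in CYGB-OE, against 2400 to 2722 and 166 to 191 in WT. The part of these marker differences in the matrix results was not tested.

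In the ADAMTS family, 11 of 24 genes besides the aggrecanases were in the table, 10 were tested, 2 rose and 8 fell. ADAMTS16 rose to 182 ± 16.1 normalised counts in CYGB-OE, against 37.8 ± 9.40 in WT (SD, n = 3 each; log2 fold change 2.26, edgeR adjusted p = 2.83e-05). ADAMTS2, the procollagen N-proteinase, rose with a log2 fold change of 1.66 (edgeR adjusted p = 0.00245). The most abundant that fell were ADAMTSL4, a fibrillin-binding protein without protease activity, ADAMTS12, ADAMTS7, papilin (PAPLN), ADAMTS9 and ADAMTS10, at -1.79, -1.20, -1.10, -1.23, -1.60 and -1.93. ADAMTS9 was -2.26 without CYGB-OE replicate 1. Under TMM over the table ADAMTS7 turned to 0.10, while ADAMTS12 was 0.00 and PAPLN -0.03. ADAMTS19 had 0 counts in every CYGB-OE library, against 10, 17 and 10 in WT, and was at least 11.6-fold lower, from a floor of 3 counts over the group. Under TMM over the table this bound was 5.06-fold. ADAMTS2 and ADAMTS19 were singled out after their values were seen. None of 6 metalloproteinase inhibitor genes was in the table.

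Proteoglycan core proteins were in the table for 9 of 36 genes, of which 1 rose and 8 fell (median log2 fold change -1.88). Of all tested features 28.3% rose and 71.5% fell. CSPG4, a membrane proteoglycan known as a melanoma antigen, fell to 14615 ± 799 normalised counts in CYGB-OE, against 53776 ± 2454 in WT (SD, n = 3 each; log2 fold change -1.88, edgeR adjusted p = 9.56e-07). ACAN fell to 123 ± 72.6 in CYGB-OE, against 1218 ± 83.2 in WT (log2 fold change -3.30, edgeR adjusted p = 0.000167). Serglycin (SRGN), the intracellular granule proteoglycan, had a log2 fold change of -3.07, endocan (ESM1) of -2.30, HSPG2 of -1.46, COL18A1 of -1.15 and the glypican GPC6 of -1.02. COL18A1 and GPC6 turned to 0.06 and 0.18 under TMM over the table. PRG4, the lubricant lubricin, rose to 239, 40.2 and 46.3 normalised counts in CYGB-OE, against 3.30, 13.4 and 6.38 in WT (log2 fold change 3.71, edgeR adjusted p = 0.00577). The size for PRG4, but not its call, rested on single libraries, at 2.39 without CYGB-OE replicate 1 and 4.44 without WT replicate 2. ACAN and ESM1, both higher in CYGB-OE replicate 1 than in the other CYGB-OE libraries as SULF1 was, were -3.89 and -2.94 without it.

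Among sugar chain enzymes besides SULF1, 1 of 30 genes of heparan sulfate synthesis and editing was in the table, EXTL1, a glycosyltransferase of the exostosin family (log2 fold change -1.11, edgeR adjusted p = 0.000427, 0.09 under TMM over the table). Of 16 chondroitin and dermatan sulfate genes it was CHST11, a chondroitin 4-O-sulfotransferase, at -1.45 (edgeR adjusted p = 3.13e-05), and under TMM over the table it was -0.25 (adjusted p = 0.218). Hyaluronan genes were in the table for 3 of 18 besides HAPLN1, and all 3 fell, where 71.5% of tested features did. TNFAIP6, a secreted hyaluronan-binding protein, fell to 13.9, 5.58 and 15.4 normalised counts in CYGB-OE, against 180, 200 and 220 in WT (log2 fold change -4.07, edgeR adjusted p = 7.73e-06). The link proteins HAPLN2 and HAPLN3 had log2 fold changes of -2.44 and -1.32. Under TMM over the table HAPLN3 was -0.12 (edgeR adjusted p = 0.488) and HAPLN2 did not pass the filter, so TNFAIP6 alone kept its call.

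Cross-linking genes moved both ways. Besides LOXL4, 5 of 19 were in the table, of which 2 rose and 3 fell, where 28.3% of tested features rose and 71.5% fell. ELN, which encodes tropoelastin, a substrate of lysyl oxidases, rose to 25.6, 102 and 86.3 normalised counts in CYGB-OE, against 8.80, 7.9 and 7.44 in WT (log2 fold change 3.13, edgeR adjusted p = 0.000535). TLL1, a tolloid protease that trims procollagens, rose with a log2 fold change of 2.54 (edgeR adjusted p = 6.65e-05). The transglutaminase TGM2 fell at -1.62, and the fibulins EFEMP2 and FBLN5, which help elastic fibres form, fell at -2.20 and -1.95. The lysyl oxidase gene with the lower transcript and the elastin gene with the higher one thus differed in direction under all scalings run.

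**Figure D4:**
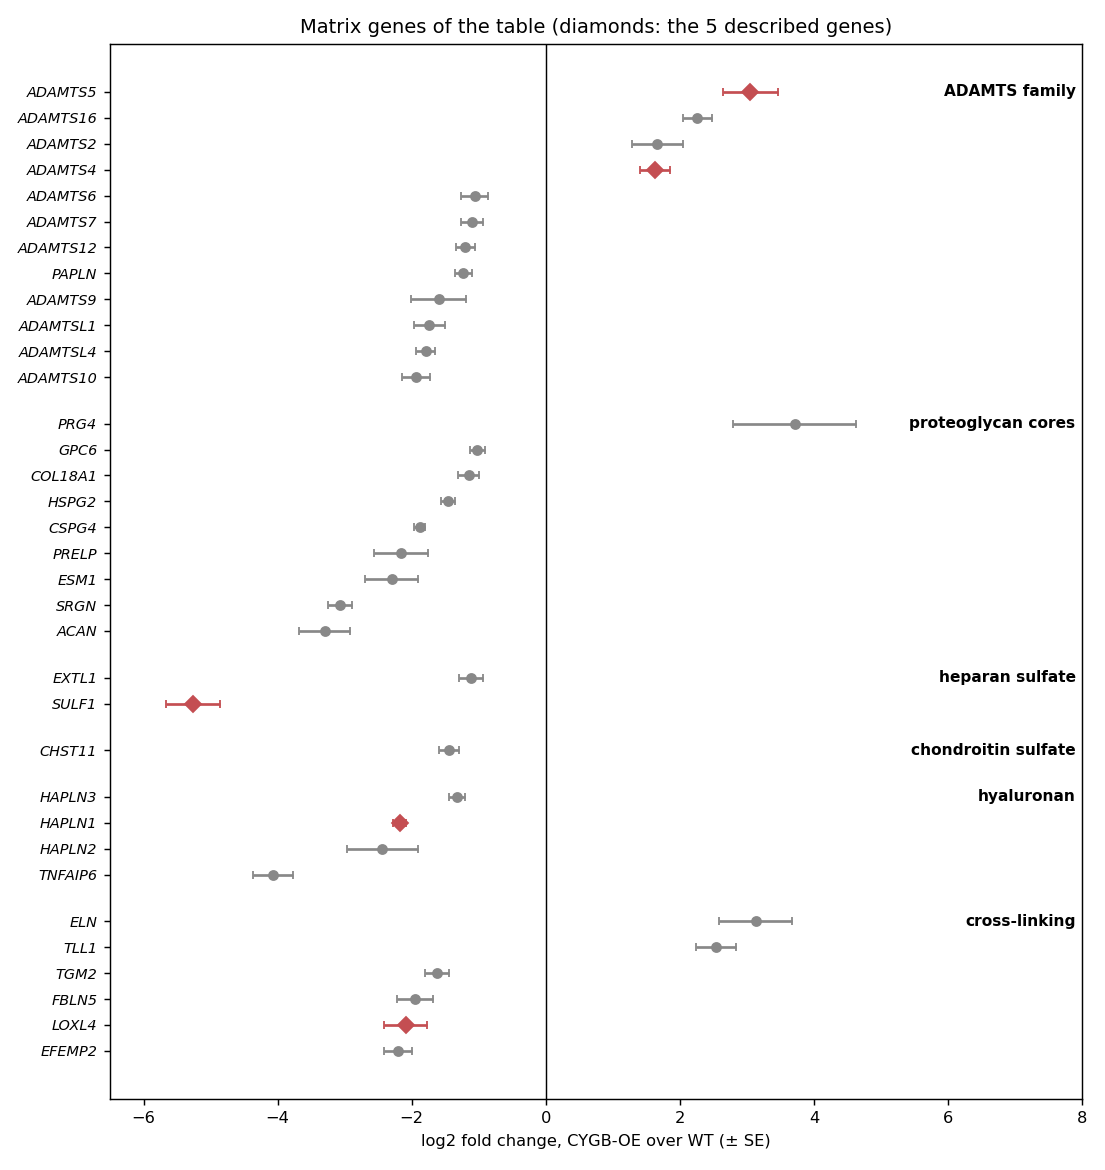
Log2 fold change, CYGB-OE over WT, with its SE (horizontal axis) for tested genes of the matrix lists that are in the table, grouped by list, with the 5 described genes as red diamonds. ADAMTS4 and ADAMTS5 stand with ADAMTS16 and ADAMTS2 above 0 while the other 8 of the family lie below it, and SULF1 (-5.26) is the lowest of all.

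The level between the groups is not fixed by the table, and other scalings moved all fold changes together. Total counts raised them by 0.34, upper-quartile factors by 0.86, and TMM or DESeq2 size factors over the table by 1.2. Under each of these ADAMTS4 and ADAMTS5 stayed above 0 and SULF1, HAPLN1 and LOXL4 below it. The smallest sizes were -0.98 for HAPLN1 and -0.89 for LOXL4, both under TMM over the table, and 1.63 for ADAMTS4 with the empty band at 0.

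**Figure D5:**
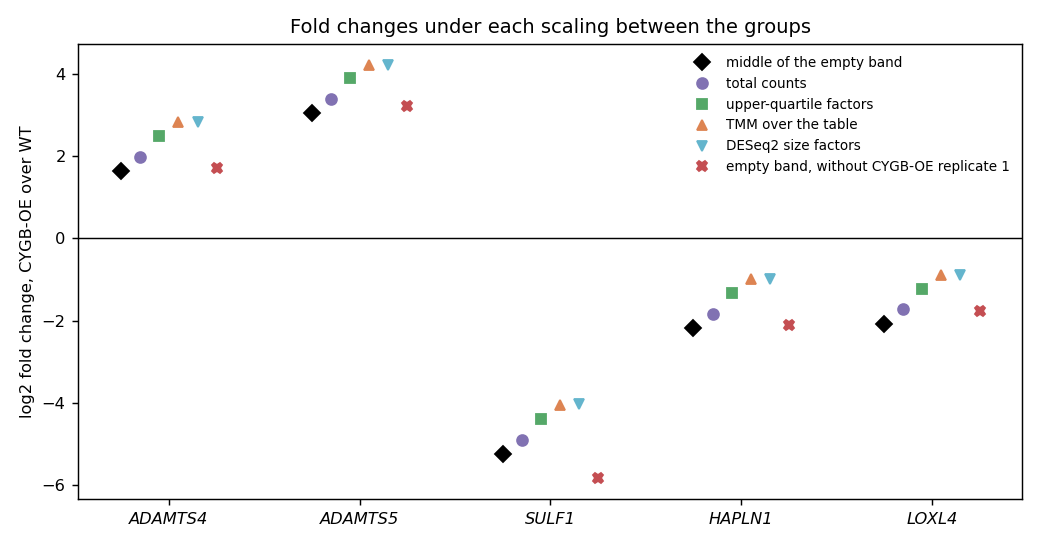
Log2 fold change, CYGB-OE over WT (vertical axis), of the 5 genes under 5 scalings between the groups and without CYGB-OE replicate 1. SULF1 lies between -5.84 and -4.04, and LOXL4 and HAPLN1 move up together to -0.89 and -0.98.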

How the data were processed

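RNA of 6 A375 libraries was sequenced after poly(A) selection. The deposited values are raw counts for each feature and library, per the file headers. Tools named in the submitters' processing notes are STAR 2.5.2b, Trimmomatic 0.36, Subread 1.5.2 and featureCounts, and the build is GRCh38. No source used here gives the annotation or the strand setting. Of 2778 features, 2611 matched GENCODE release 29 by Ensembl identifier and 163 are unnamed loci.

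The members, lists, scaling and tests were chosen with earlier results of these data known. Counts were scaled by TMM within each group, and the level between groups was set so that the empty band of log2 ratios, 1.99 wide, centres on 0. All features were fitted with edgeR 4.0.16 (R 4.3.3), with filterByExpr at a minimum count of 10, robust quasi-likelihood F tests, group as the only term and Benjamini-Hochberg adjustment over features tested. Standard errors come from the F statistic. The test code was run on simulated counts in which most features did not differ and the scaling was given. That run does not check the scaling or the calls reported here. Alternatives were 4 other scalings, DESeq2 1.42.0, limma-voom (limma 3.58.1), no filter, the replicate block, each library left out and adjustment over all annotated genes. Named were the 5 genes, CYGB, list genes passing the filter (up to 8 a list by mean count), the 3 nearest patterns for each and neighbours within 500 kb. Not every neighbour is reported here. The symbol ADAMTSL6 was not matched. Intervals cover counting error only.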

Additional observations from a re-analysis of the deposited data

How the results depend on the processing

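All 5 genes kept their direction under the alternatives run. Log2 fold changes of ADAMTS4, ADAMTS5, SULF1, HAPLN1 and LOXL4 were 2.83, 4.23, -4.05, -0.98 and -0.89 under TMM over the table, 2.83, 4.23, -4.04, -0.98 and -0.89 under DESeq2 size factors, and 2.5, 3.90, -4.39, -1.32 and -1.23 under upper-quartile factors. Total counts gave 1.98, 3.39 and -1.83 for ADAMTS4, ADAMTS5 and HAPLN1. Leaving out each library gave -5.84 to -5.02 for SULF1. Features called lower numbered 465 under TMM, 462 under DESeq2 size factors and 887 under upper-quartile factors, and matrix list genes called lower 9 under TMM and 8 under DESeq2 size factors. Adjusted over all annotated genes, a choice made after seeing the data for the lists, 3 matrix list genes stayed higher. The table holds changed features alone, so it does not fix the level between the groups. Replicate numbers are shared between groups. Deviations of same-numbered libraries correlated at -0.0148, -0.0727 and 0.00546 across features. Of all libraries of both groups, CYGB-OE replicate 3 alone correlated best with the library of its own number. CYGB-OE replicate 1 correlated best with WT replicate 2, at 0.0517, and CYGB-OE replicate 2 with WT replicate 3, at 0.0484. These values cannot show whether same-numbered libraries were grown or prepared together, which the labels do not say. With the replicate block 696 features were higher and 1763 lower, and the 5 genes were 1.65, 3.06, -5.38, -2.19 and -2.19. Depth limits ADAMTS5, with 3 counts in each WT library.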
